A study of Mus musculus with 72 samples.

Results

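The pituitary transcriptome of adult male offspring on the control diet was compared between mice born to calorie-restricted dams (CR20-CTRL, 6 mice) and mice born to freely fed dams (FED-CTRL, 6 mice). The members are these 12 libraries of the 72 in the series, chosen by tissue, maternal group and diet as labelled, and the comparison was read across the 16657 genes that passed a filter on low counts. All 12 were FVB.129P2 (sighted FVB) males, and each group held other mice. CR20 dams were given 80% of what a paired dam had eaten the day before, from E15 (embryonic day 15) through weaning of the litter, and FED dams ate ad libitum. The offspring ate the 10% fat diet (CTRL) from 8 weeks of age, for 10 weeks according to the methods and for 10 or 16 according to the sample labels. Litters and dams are not given for the libraries, so that mice of a group may be litter mates, and p-values measure the spread between these mice. The other pituitary libraries, of 6 FED-HFD and 6 CR20-HFD mice on the 45% fat diet, shared the fit and are set beside the result where they bear on it.

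The anterior pituitary holds a small set of endocrine cell types, each known by its hormone: somatotropes make growth hormone, lactotropes prolactin, corticotropes and melanotropes the precursor Pomc, gonadotropes the follicle-stimulating and luteinizing hormones, and thyrotropes thyroid-stimulating hormone. Hypothalamic releasing factors and hormones from the target glands reach these cells through the blood and set how much hormone is made and released. The gland thereby links nutrition to growth, reproduction, stress and thyroid function. In RNA from a whole gland, fewer cells of a type and less RNA per cell cannot be told apart.

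The libraries held 19873969 to 24369270 counts, from which a count of 3 corresponds to 0.123 to 0.151 CPM (counts scaled to library size). Gh alone took 20.7% to 31.5% of the counts, and the summed level of the somatotrope markers was 192760 to 336610 CPM in FED-CTRL and 211180 to 327320 CPM in CR20-CTRL. Of the 12 libraries, FED-CTRL mouse 16 lay at one end of the first principal component (-37.6) and CR20-CTRL mice 48 and 49 at the other (28.4 and 29.3). FED-CTRL mouse 42 (15.4) lay among the CR20-CTRL mice, and CR20-CTRL mice 4 (-8.12) and 5 (-4.03) among the FED-CTRL mice. These 6 mice, among others, move the counts of genes given below.

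No gene passed an adjusted p of 0.05, the smallest being 0.0682 and shared by 33 genes (edgeR quasi-likelihood test, Benjamini-Hochberg adjustment over all genes tested). The lower end of the p-values was nevertheless crowded: 2887 genes had an unadjusted p under 0.05, which is 17.3% of those tested where 5% is given by a test with no difference. Of these, 1774 genes were higher in CR20-CTRL (10.7%) and 1113 were lower (6.68%). At an adjusted p under 0.10 there were 261 genes (1.57%), of which 203 were higher in CR20-CTRL (1.22%) and 58 lower (0.348%), and 258 of them code for proteins. The differences were small, with a median absolute log2FC (log2 fold change, CR20-CTRL vs FED-CTRL) of 0.42 among the 261 genes. Only 5 exceeded 1 on the log2 scale: Akr1c14, Gm37696 and BC030500, which were higher, and Cimap1b and Arhgef37, which were lower. Apart from Akr1c14 these genes had mean levels of -1.37 to 0.21 log2 CPM over the 24 libraries and were named after their values were seen. In 65 of the 261 genes the 6 mice of one group all lay above the 6 of the other, as did 123 of all genes tested (0.738%).

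The count depends on the test and on single mice. The adjusted p of 0.05 was passed by 284 genes with limma voom under quality weights and by 350 with DESeq2. With voom without weights it was passed by 0. The paper names voom with quality weights as its method. It reports no significant pituitary genes in any of its comparisons at an adjusted p under 0.05. Its methods also set a minimum log2FC for significant genes, which was not asked of the 284 genes. Why 284 genes passed here was not tested. In edgeR without FED-CTRL mouse 42, the adjusted p of 0.05 was passed by 540 genes, and without CR20-CTRL mouse 4 by 222. It was passed by 55 without CR20-CTRL mouse 5 and by 33 without FED-CTRL mouse 14. In contrast, without FED-CTRL mouse 16, 24 or 41, or without CR20-CTRL mouse 33, 48 or 49, no gene passed even the adjusted p of 0.10, while 2037 to 2515 genes had an unadjusted p under 0.05. All single genes below are therefore given by their values in the mice, and "higher" or "lower" stands for a difference in these mice that did not pass the adjusted p of 0.05.

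**Figure D1:**
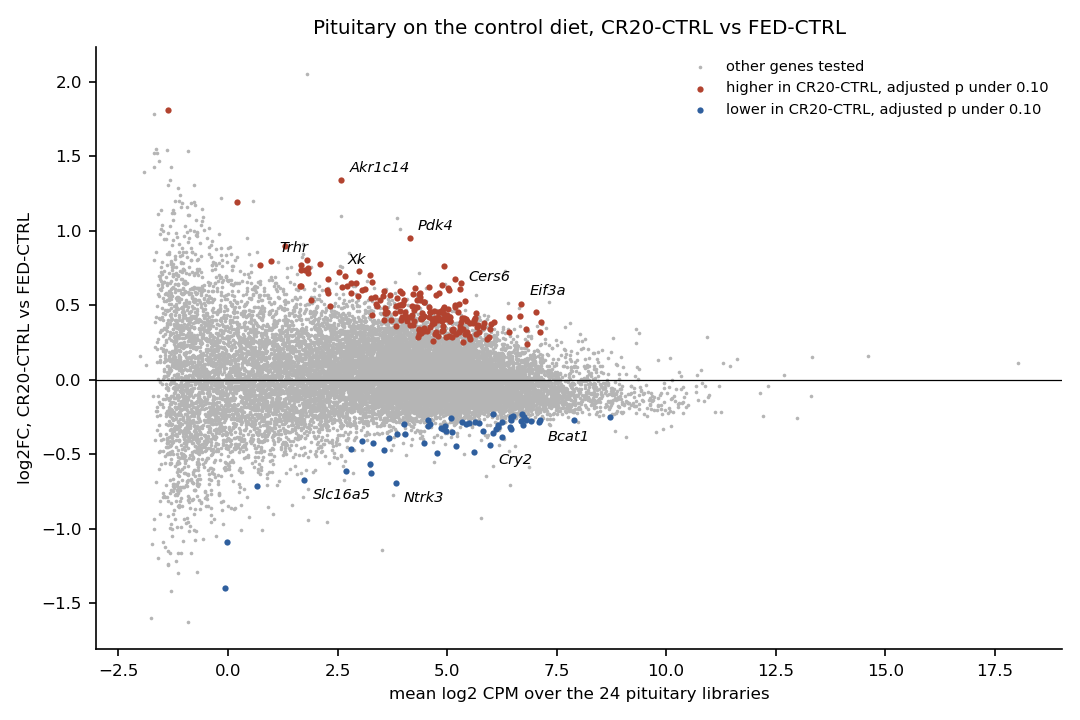
Log2FC of CR20-CTRL vs FED-CTRL (vertical axis) against the mean log2 CPM over the 24 pituitary libraries (horizontal axis) for the 16657 genes tested. Red points are the 203 genes higher and blue points the 58 genes lower at an adjusted p under 0.10, which lie mostly within 1 log2 unit of 0, and grey points are all other genes.

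Among the genes higher in CR20-CTRL, the smallest p belonged to Btg1, an antiproliferative gene (ENSMUSG00000036478, GRCm39 chr10:96452861-96458671). Its level was 5.68, 5.90 and 6.07 log2 CPM (lowest, median, highest) in FED-CTRL and 6.14, 6.25 and 6.44 in CR20-CTRL. The groups did not overlap, and the log2FC was 0.38 (SE 0.0718, adjusted p = 0.0682). The exact permutation p of Btg1, two-sided over 924 divisions of the 12 mice, was 0.00216, the smallest that they allow. Cers6, a ceramide synthase (ENSMUSG00000027035, chr2:68691455-68944627), measured 4.83, 5.08 and 5.33 log2 CPM in FED-CTRL and 5.33, 5.68 and 5.98 in CR20-CTRL. The lowest CR20-CTRL mouse lay just under the highest FED-CTRL mouse, and the log2FC was 0.61 (SE 0.117, adjusted p = 0.0682). Xk, which encodes a membrane protein of red cells and muscle, ranged from 1.79 to 2.41 log2 CPM in FED-CTRL and from 2.45 to 3.18 in CR20-CTRL, with no overlap and a log2FC of 0.72.

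A further 8 genes of small p that were higher had log2FC of 0.39 to 0.63. They are Snx9, a sorting nexin of endocytosis (0.47), the centrosomal gene Nin (0.55), the translation initiation subunit Eif3a (0.51), the kinase Cdk13 (0.39), the actin-related Actr6 (0.63), the zinc finger gene Zfp626 (0.56), the kinase Nek1 (0.53) and Ppil4, a peptidyl-prolyl isomerase (0.54). The mice of both groups did not overlap for Nin, Cdk13 and Nek1. Each of these 8 genes had an adjusted p of 0.0682.

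The largest difference among the well-measured genes was that of Akr1c14, a 3-alpha-hydroxysteroid dehydrogenase (ENSMUSG00000033715, chr13:4099002-4141081). Its level was 1.20, 1.85 and 2.09 log2 CPM in FED-CTRL and 2.47, 3.05 and 3.79 in CR20-CTRL. All CR20-CTRL mice lay above all FED-CTRL mice, which gives a log2FC of 1.34 (SE 0.31, adjusted p = 0.0725) or mean levels of 3.39 ± 0.806 CPM and 8.57 ± 2.90 CPM (SD). Pdk4, the kinase that shuts down pyruvate dehydrogenase in fasting and under glucocorticoids (chr6:5483097-5496339), measured 3.21, 3.43 and 3.83 log2 CPM in FED-CTRL and 3.56, 4.38 and 4.95 in CR20-CTRL. A single CR20-CTRL mouse, 33, lay within the FED-CTRL range, and the log2FC was 0.95 (SE 0.232, adjusted p = 0.0725). The potassium channel gene Kcnk10 (0.91, adjusted p = 0.124) and Zc3h8, a zinc finger gene (0.90, adjusted p = 0.0871), followed.

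**Figure D2:**
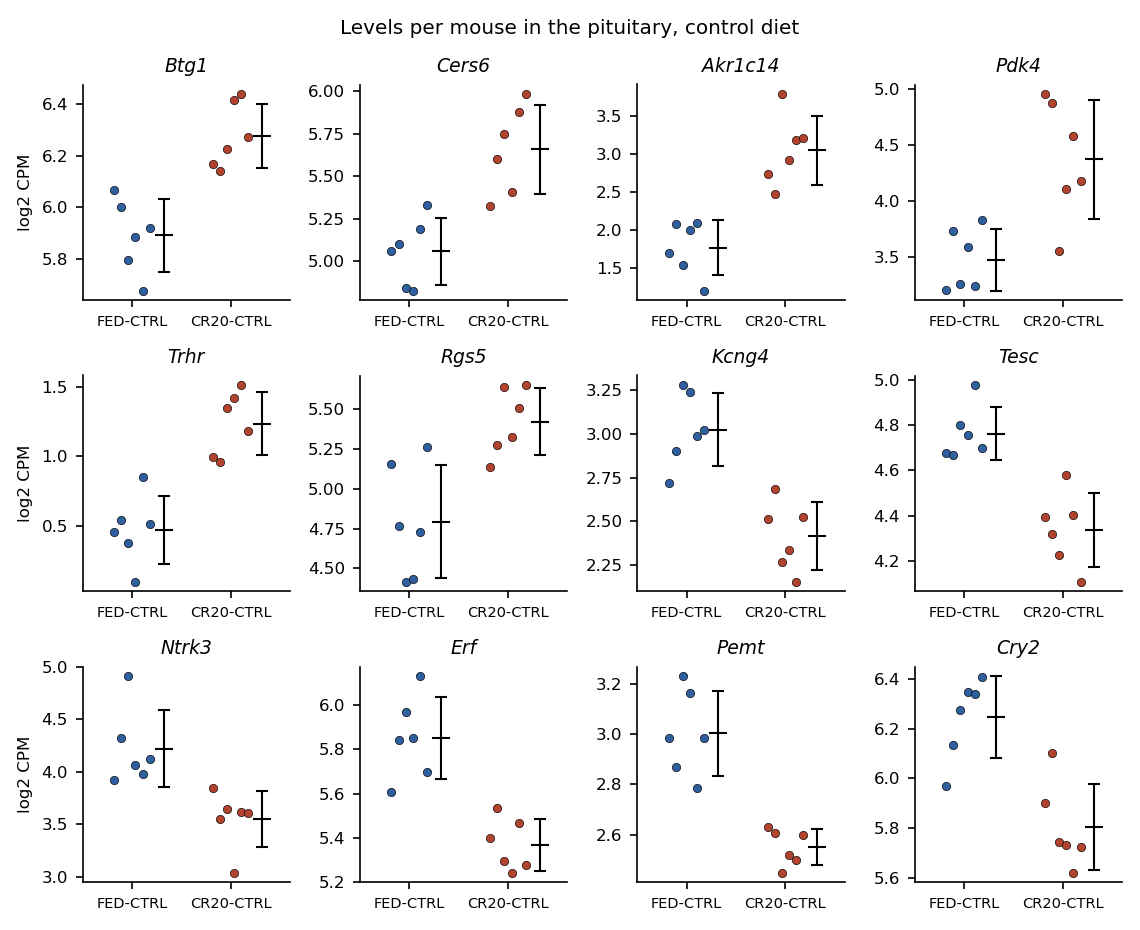
Log2 CPM of 12 genes in each FED-CTRL mouse (blue) and each CR20-CTRL mouse (red), with the mean and SD of the 6 mice beside the points and an axis of its own for each gene. Btg1, Akr1c14 and Trhr show CR20-CTRL mice entirely above FED-CTRL mice, and Kcng4, Tesc, Ntrk3, Erf and Pemt entirely below.

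Of the genes lower in CR20-CTRL, Kcng4, a modulatory potassium channel subunit (ENSMUSG00000045246, chr8:120349688-120362762), had the smallest p. Its level was 2.72, 3.00 and 3.27 log2 CPM in FED-CTRL and 2.16, 2.43 and 2.69 in CR20-CTRL. The groups did not overlap, and the log2FC was -0.62 (SE 0.134, adjusted p = 0.0682). Ntrk3, the receptor of neurotrophin-3 (chr7:77825707-78387760), measured 3.92, 4.09 and 4.91 log2 CPM in FED-CTRL and 3.04, 3.61 and 3.84 in CR20-CTRL, without overlap. Its log2FC was -0.69 (SE 0.158, adjusted p = 0.0682), and it was the only one of the 24 genes of smallest p, 12 in each direction, to be lower also on the high fat diet at an unadjusted p under 0.05 (-0.46).

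Bcat1, the cytosolic transaminase of branched-chain amino acids, and Bckdk, the regulatory kinase of the branched-chain dehydrogenase complex, were lower (-0.29 and -0.38). Pemt, which makes phosphatidylcholine from phosphatidylethanolamine, had levels of 2.79 to 3.23 log2 CPM in FED-CTRL and 2.45 to 2.63 in CR20-CTRL, with no overlap and a log2FC of -0.46. Coasy, which carries out the closing steps of coenzyme A synthesis, was lower by -0.34, again without overlap. The rest were Tesc, a calcium-binding protein (-0.42), Pwwp2b, a chromatin reader (-0.45), Rtl6, derived from a retrotransposon (-0.28), Erf, a transcriptional repressor downstream of Erk (-0.49), Sgsm2 of Rab regulation (-0.33) and the neuronal tubulin Tubb3 (-0.36), with adjusted p of 0.0682 to 0.0725. By size of the difference, Ankrd9 (-0.84, adjusted p = 0.108), Itgae, the alpha E integrin of resident lymphocytes (-0.71, adjusted p = 0.163), Exoc3l4 (-0.68, adjusted p = 0.135) and the transporter gene Slc16a5 (-0.67, adjusted p = 0.0988) were the further lower genes.

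The hormone genes themselves showed little. Gh was at 17.6, 17.9 and 18.4 log2 CPM in FED-CTRL and 17.7, 18.1 and 18.3 in CR20-CTRL, with a log2FC of 0.11 (SE 0.126, adjusted p = 0.68). Prl (0.15, SE 0.168), Cga, the subunit common to the glycoprotein hormones (0.11, SE 0.121), and Pomc (0.16, SE 0.101) likewise had adjusted p over 0.4 and overlapped. Tshb, of thyroid-stimulating hormone, had a log2FC of -0.18 (SE 0.103, adjusted p = 0.355), which was -0.32 (adjusted p = 0.164) with an offset for the GC content and length of the genes, an alternative described below.

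Fshb, of follicle-stimulating hormone, was the only hormone gene with an unadjusted p under 0.05 in the fit of all mice. Its level was 8.94, 9.18 and 9.56 log2 CPM in FED-CTRL and 9.01, 9.49 and 10.1 in CR20-CTRL, with a log2FC of 0.31 (SE 0.144, adjusted p = 0.257, exact permutation p = 0.143). Of the 6 CR20-CTRL mice, 3 lay above all FED-CTRL mice and the other 3 within their range. The log2FC of Fshb was 0.17 without CR20-CTRL mouse 33 and 0.19 (adjusted p = 0.586) with the offset, under which Tshb and Pomc (0.27, adjusted p = 0.236) had an unadjusted p under 0.05 and Fshb did not. Lhb, of luteinizing hormone, received only 2 to 13 counts per mouse and overlaps Ruvbl2 on the opposite strand in the annotation, so that its level is uncertain and no difference is read from it.

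Of the receptors through which the hypothalamus and the circulation address these cells, 26 of 27 were tested, and 6 were higher (23.1%) and 0 lower at an unadjusted p under 0.05, with a median log2FC of 0.14. Among all genes tested 10.7% were higher and 6.68% lower, and the median was 0.01. With a mouse left out, 4 to 9 of the receptors were higher and 0 to 2 lower. Their median difference of mean log2 CPM was -0.02 among the mice numbered under 20 and 0.13 among those numbered 40 and above. The leading one was Trhr, the receptor for thyrotropin-releasing hormone (ENSMUSG00000038760, chr15:44059483-44099315). It measured 0.10, 0.48 and 0.85 log2 CPM in FED-CTRL and 0.96, 1.27 and 1.51 in CR20-CTRL. The groups did not overlap (log2FC 0.80, SE 0.2, adjusted p = 0.0725). The prolactin receptor Prlr (0.37, adjusted p = 0.109) and the mineralocorticoid receptor Nr3c2 (0.37, adjusted p = 0.156) came next. Per mouse, the mean of the list was 4.14 to 4.33 log2 CPM in FED-CTRL and 4.14 to 4.53 in CR20-CTRL, and the lowest CR20-CTRL mouse equalled the lowest FED-CTRL mouse.

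Trhr is also a member of the genes of thyroid hormone action, of which 15 of 18 were tested, and 5 were higher (beside 10.7% of all genes) and 0 lower (median 0.10). There was 1 higher without FED-CTRL mouse 24, 2 without CR20-CTRL mouse 48 or 49 and 3 without FED-CTRL mouse 14, 16 or 41, and 0 to 2 were lower with a mouse left out. Ncor1, the corepressor of thyroid hormone receptors (0.18, adjusted p = 0.211), and Klf9, a transcription factor under thyroid hormone control, belong to it. The median of that list was -0.01 without CR20-CTRL mouse 5.

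The transcription factors that set the pituitary lineages had 2 of 23 higher and 5 lower, 30.4% in all (median -0.03). Among all genes tested 10.7% were higher and 6.68% lower, 17.3% in all. Nr5a1, which defines gonadotropes, was at 6.27, 6.51 and 6.77 log2 CPM in FED-CTRL and at 6.18, 6.26 and 6.30 in CR20-CTRL. Of the 6 CR20-CTRL mice, 4 lay under all FED-CTRL mice and the other 2 just above the lowest (log2FC -0.27, SE 0.0798, adjusted p = 0.109), while on the high fat diet Nr5a1 was higher in CR20 mice (0.27, at an unadjusted p under 0.05). Tbx19, the factor of corticotropes and melanotropes (-0.24), and Gata2, of gonadotropes and thyrotropes (-0.28), were lower as well. Neurod4 (0.51, adjusted p = 0.112) and the stem cell factor Sox2 (0.30, adjusted p = 0.167) were higher.

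The secretory granule and prohormone processing genes were divided, with 5 of 30 higher and 4 lower. This was 30% of the list, beside 17.3% of all genes tested (10.7% higher and 6.68% lower). Rph3al, a Rab effector of granule release (-0.27, adjusted p = 0.0988), Ptprn, a granule membrane protein (-0.25), and Pam, the amidating enzyme (-0.19), were lower. Rab27b (0.53), Syt4 (0.48) and Scg5 (0.25), a chaperone of the convertase Pcsk2, were higher. Of the markers of endocrine cell types, none of the 3 of somatotropes or the 3 of lactotropes had an unadjusted p under 0.05. Higher were 1 of 4 markers of melanotropes (Oacyl, 0.52), 1 of 4 of thyrotropes (Trhr) and 1 of 5 of gonadotropes (Fshb), and lower were 1 of 4 of corticotropes (Tbx19) and 1 of 5 of gonadotropes (Nr5a1). Nothing about a cell type is read from so few markers.

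The ribosomal protein and respiratory chain genes lay lower as groups. Of 78 cytosolic ribosomal protein genes tested, 75 had a log2FC under 0, 32 were lower and 0 higher at an unadjusted p under 0.05, and the median was -0.15. Of 80 nuclear genes for subunits of the respiratory chain, 70 had a log2FC under 0, 28 were lower and 0 higher, and the median was -0.14. Among all genes tested 6.68% were lower and the median was 0.01. The lower ribosomal protein genes were 53 without FED-CTRL mouse 42 and 50 without CR20-CTRL mouse 5, and 16 to 20 without FED-CTRL mouse 16 or 41 or CR20-CTRL mouse 48 or 49. The lower respiratory chain genes were 17 or 18 without FED-CTRL mouse 41 or CR20-CTRL mouse 48 or 49.

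The differences are shallow in the single gene. Rpl9, of the large ribosomal subunit, was at 9.80, 10.0 and 10.2 log2 CPM in FED-CTRL and 9.62, 9.77 and 9.93 in CR20-CTRL (log2FC -0.23, SE 0.0723, adjusted p = 0.12). Rpl27 (-0.23) and Rpl41 (-0.31) had similar values, as had Ndufv3 of complex I (-0.26) and the ATP synthase genes Atp5mj (-0.25) and Atp5f1c (-0.19). No gene of either list had an adjusted p under 0.10. Per mouse, the mean over the ribosomal protein genes was 8.57, 8.82 and 8.86 log2 CPM in FED-CTRL and 8.48, 8.65 and 8.76 in CR20-CTRL. FED-CTRL mouse 42 was the low one of its group, and of the other FED-CTRL mice only mouse 15 (8.74) lay under CR20-CTRL mice 4 (8.76) and 5 (8.75).

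The mitochondrially encoded genes had 0 of 10 at an unadjusted p under 0.05 (median -0.12). The proteasome subunit genes had 4 of 37 higher, among them Psma4 (0.29, adjusted p = 0.101), and 7 lower, among them Psmd8 (-0.23, adjusted p = 0.0988) and Psmb5 (-0.29), with a median of -0.05. Of the 27 replication-dependent histone genes tested, 1 was lower (H4c9, -0.29) and 0 higher. The shares at an unadjusted p under 0.05 were 29.7% for the proteasome and 3.7% for the histone genes, beside 17.3% of all genes.

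**Figure D3:**
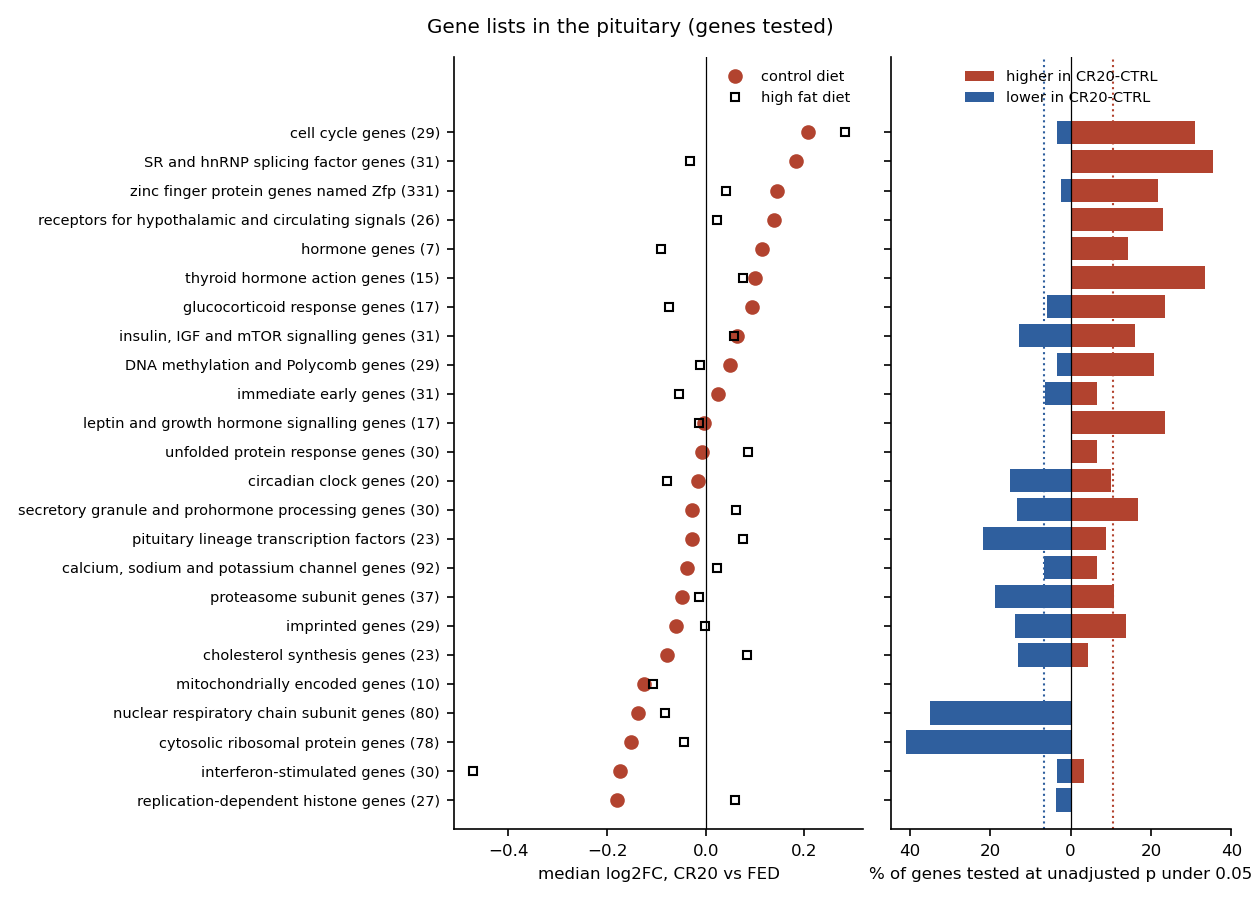
The left panel gives the median log2FC of CR20 vs FED over the tested genes of each list on the control diet (red circles) and the high fat diet (open squares). The right panel gives the percentage of each list that was higher (red) or lower (blue) in CR20-CTRL at an unadjusted p under 0.05, and the dotted lines are the same percentages over all genes tested (10.7% and 6.68%).

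Genes of RNA processing and zinc finger proteins stood on the other side, and both lists have a low GC content (median 42.3% and 44.8%, beside 49.5% for all genes tested). Of 31 SR and hnRNP splicing factor genes, 30 had a log2FC above 0, 11 were higher and 0 lower at an unadjusted p under 0.05, and the median was 0.18, beside 10.7% higher among all genes tested. Hnrnpu, a nuclear scaffold protein, measured 6.38, 6.91 and 7.09 log2 CPM in FED-CTRL and 6.86, 7.34 and 7.64 in CR20-CTRL, so that the groups overlapped in part (log2FC 0.45, SE 0.123, adjusted p = 0.088). Hnrnpl (0.27) and Srsf10 (0.53) followed. With the offset for GC content and length 5 of the 31 were higher (median 0.05), and 7 were without FED-CTRL mouse 16 or CR20-CTRL mouse 33, 48 or 49. Of 331 genes named Zfp, 247 had a log2FC above 0, 72 were higher and 8 lower, and the median was 0.14, while 30 were higher and 11 lower with the offset (median 0.05) and 45 were higher without FED-CTRL mouse 16. Zfp626 (above) and Zfp638 (0.49, adjusted p = 0.0725) led them.

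The DNA methylation and Polycomb genes had 6 of 29 higher and 1 lower (median 0.05), beside 10.7% and 6.68% of all genes. With the offset 1 was higher and 3 lower, and 3 were higher without FED-CTRL mouse 16 or 41 or CR20-CTRL mouse 48 or 49. Suz12 (0.34) and Bmi1 (0.32), of the Polycomb repressive complexes, were higher and the histone chaperone Rbbp4 was lower (-0.17). The adjusted p of these genes was 0.18 to 0.186.

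Of the 29 cell cycle genes tested, 9 were higher and 1 lower, with a median log2FC of 0.21, beside 10.7% and 6.68% of all genes. Without CR20-CTRL mouse 33 there were 3 higher (median 0.06), and the 23 genes with over 1 CPM in at least 6 libraries had a median of 0.05. Genes of the list are rare transcripts in this gland. Plk1, a mitotic kinase, was at -1.30, -0.54 and -0.41 log2 CPM in FED-CTRL and at -1.23, 0.37 and 0.93 in CR20-CTRL (log2FC 1.22, SE 0.379, adjusted p = 0.119). CR20-CTRL mouse 47 lay at the level of the lowest FED-CTRL mouse and the other 5 CR20-CTRL mice above all FED-CTRL mice. Ccnb2, a mitotic cyclin (1.15), and Rrm2, of nucleotide reduction (0.77), were also higher, and Mcm5, of the replicative helicase, was lower (-0.25). On the high fat diet the list had 4 genes higher and 0 lower, with a median of 0.28.

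The lists of glucocorticoid response and of the clock had genes in both directions. Their shares at an unadjusted p under 0.05 were 29.4% and 25%, beside 17.3% of all genes (10.7% higher and 6.68% lower). Of 17 glucocorticoid response genes, 4 were higher, with Pdk4 followed by Tsc22d3, also known as Gilz (0.30, adjusted p = 0.209), and Klf9 (0.27, adjusted p = 0.245), and 1 was lower, the clock gene Per1. Of 20 circadian clock genes, Clock (0.43) and Cry1 (0.50) were higher and 3 were lower. Cry2, a repressor of the clock, measured 5.97, 6.31 and 6.41 log2 CPM in FED-CTRL and 5.62, 5.74 and 6.10 in CR20-CTRL, and only CR20-CTRL mouse 5 lay above a FED-CTRL mouse, 14 (log2FC -0.44, SE 0.116, adjusted p = 0.0871). For Per1 the log2FC was -0.58 (SE 0.227, adjusted p = 0.193). Among the mice numbered under 20 alone, the log2FC of Per1 (0.15) and of Cry1 (-0.14) had the other sign. The median difference of mean log2 CPM over the glucocorticoid response genes was 0.30 in those mice and 0.04 in those numbered 40 and above. For the clock genes it was -0.14 and 0.17.

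Of 31 genes of insulin, IGF and mTOR signalling, 5 were higher, among them the S6 kinase gene Rps6kb1 (0.53), and 4 lower, among them Tsc2 (-0.22), Akt1s1 (-0.21) and Akt2 (-0.19), with a median of 0.06. The leptin and growth hormone signalling genes had 4 of 17 higher and 0 lower, led by the phosphatase gene Ptpn2 (0.39), with a median of 0.00. Of 23 cholesterol synthesis genes, 1 was higher (Sc5d, 0.34) and 3 lower, among them Fdft1 (-0.19) and Dhcr7 (-0.25). In this order, the shares of the lists at an unadjusted p under 0.05 were 29%, 23.5% and 17.4%. Among all genes tested the share was 17.3% (10.7% higher and 6.68% lower), so that the cholesterol synthesis genes did not depart from it.

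The immediate early genes had 2 of 31 higher and 2 lower. This was 12.9% of the list, under the 17.3% of all genes (10.7% higher and 6.68% lower). Klf6 was higher (0.42, adjusted p = 0.0871) as was Dusp6 (0.27), and Nr4a3 (-1.14) and Maff (-0.94) were lower with wide spread between mice. The imprinted genes had 4 of 29 higher, with Grb10, an adaptor that restrains insulin signalling (0.29), and Usp29 (0.35), and 4 lower, with Nnat (-0.26), an endoplasmic reticulum protein, and Trappc9 (-0.21). In all, 27.6% of the imprinted genes had an unadjusted p under 0.05. Nnat is an abundant transcript, at 8766 ± 1258 CPM in FED-CTRL and 7337 ± 503.0 CPM in CR20-CTRL (SD). The unfolded protein response genes had 2 of 30 higher, Canx (0.27) and Dnajc3 (0.26), and 0 lower, and the interferon-stimulated genes 1 of 30 higher (Ifit1, 0.60) and 1 lower (Ifi35, -0.23). The calcium, sodium and potassium channel genes had 6 of 92 higher, with Kcnj5 (1.07), and 6 lower, with Kcng4. For the last 3 lists the shares were 6.67%, 6.67% and 13.0%, under the 17.3% of all genes.

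Markers of other cells were examined beside these lists. Rgs5, of pericytes, was at 4.42, 4.75 and 5.26 log2 CPM in FED-CTRL and 5.14, 5.42 and 5.65 in CR20-CTRL (log2FC 0.60, SE 0.136, adjusted p = 0.0682), while the other 8 pericyte and smooth muscle markers had an unadjusted p over 0.05. Of 12 endothelial markers 2 were higher, including Cdh5 (0.24), and the fibroblast marker Ogn was the only one of its 10 (0.53). The neuronal marker Rbfox3 was higher (0.37), the only one of 7 in its list. None of the tested macrophage, lymphocyte, pituicyte, Schwann cell, muscle or red blood cell markers had an unadjusted p under 0.05. Among all genes tested 10.7% were higher and 6.68% lower.

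Low levels of transcripts foreign to the gland differed as well. Bpifa1, a secreted protein of the airway, was at -3.45, 0.70 and 1.97 log2 CPM in FED-CTRL and at -0.46, 2.21 and 4.14 in CR20-CTRL (log2FC 2.05, SE 0.744, adjusted p = 0.164). The highest values were those of CR20-CTRL mice 47 and 48, and the groups overlapped. FED-CTRL mouse 41 had 0 counts, and without it the log2FC was 1.78. Of the 8 airway and oral epithelium markers, 4 were tested, and 2 were higher (with Krt5, 1.52) and 0 lower. Their summed level was 4.53 to 9.34 CPM in FED-CTRL and 5.76 to 23.2 CPM in CR20-CTRL, and Krt13, Scgb1a1, Muc5ac and Trp63 were too low to be tested. Alb, of hepatocytes, had a log2FC of 1.53 at 0.413 ± 0.194 and 1.21 ± 0.637 CPM (SD). Of the other 7 hepatocyte markers, Apoa1 (0.41, adjusted p = 0.617) and Ttr (-0.50, adjusted p = 0.613) had an unadjusted p over 0.05 and 5 were not tested. The part of such admixture in the genes described above was not tested.

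A property that no list used moved with the whole comparison. The genes tested were divided into quintiles by the GC content of their longest transcript. In the lowest quintile, 26.3% of genes were higher and 1.17% lower at an unadjusted p under 0.05, and the median log2FC was 0.18. In the highest quintile, 1.81% were higher and 13.9% lower, and the median was -0.09. Of the 203 genes higher at an adjusted p under 0.10, 117 belonged to the lowest quintile and 2 to the highest. Of the 58 lower genes, 28 belonged to the highest quintile and 2 to the lowest. Length moved with it to a lesser degree, from a median of -0.05 in the shortest quintile to 0.07 in the longest. The medians of the GC quintiles on the high fat diet all lay between -0.01 and 0.01.

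The same property separated the mice. The difference between the mean deviations of the lowest and the highest GC quintile in a library, in log2 CPM, was -0.48, -0.24, -0.15, -0.12, -0.04 and 0.20 in FED-CTRL mice 16, 24, 15, 41, 14 and 42. It was -0.12, 0.02, 0.13, 0.15, 0.23 and 0.31 in CR20-CTRL mice 4, 5, 47, 33, 48 and 49. FED-CTRL mouse 42 thus stood with the CR20-CTRL mice and CR20-CTRL mouse 4 with the FED-CTRL mice. On the high fat diet, FED-HFD mouse 10 had a value of -0.34.

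With an offset for GC content and length in each library, 13 genes had an adjusted p under 0.10 in place of 261, and 2299 an unadjusted p under 0.05 in place of 2887 (1102 higher and 1197 lower). All 261 genes kept their sign, and 254 kept an unadjusted p under 0.05. The same libraries had chosen these genes, so that nothing is read from either count. The median log2FC of the higher ones was 0.32 in place of 0.44, and that of the lower ones was -0.27 in place of -0.32. The 10 of the 13 genes that also stood among the 261 include Snx9 (0.50), Cers6 (0.52), Nin (0.51), Bcat1 (-0.36) and Ntrk3 (-0.85), each with an adjusted p of 0.0712 or 0.0934. The offset left the ribosomal protein genes (33 of 78 lower, median -0.14) and the respiratory chain genes (32 of 80 lower, median -0.14) as they were. It brought the splicing factors, the Zfp genes and the DNA methylation and Polycomb genes to the lower counts given above, and the cell cycle genes to 6 of 29 higher (median 0.13). The offset fit and the GC quintiles were chosen after the data were seen, and whether the composition reflects the libraries or the tissue was not tested.

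On the high fat diet, the comparison of CR20 with FED mice, which shares no library with the one on the control diet, gave 1127 genes at an unadjusted p under 0.05 (6.77%), of which 554 were higher (3.33%) and 573 lower (3.44%), and 0 at an adjusted p of 0.05. Across all genes tested, the log2FC on both diets had a Pearson r of 0.03, a description over genes that are not independent of one another. Of the 261 genes, 154 had the same sign on the high fat diet, as did 52.6% of all genes tested, and their medians there were 0.03 for the higher and 0.02 for the lower ones. Only 11 of them had an unadjusted p under 0.05 on the high fat diet, 10 with the same sign.

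The ribosomal protein genes had a median of -0.04 on the high fat diet with 0 genes higher or lower, and the splicing factors -0.03 with 0 higher and 1 lower. The respiratory chain genes had 8 lower and 0 higher (median -0.08) and the Zfp genes 19 higher and 6 lower (median 0.04). Conversely, the interferon-stimulated genes had 17 of 30 lower on the high fat diet (median -0.47). The difference between the diets was tested as an interaction, which had an unadjusted p under 0.05 for 1833 genes (11.0%) and an adjusted p under 0.05 for 0 (smallest 0.314). DESeq2 gave an adjusted p under 0.05 of the interaction to 2 genes. Among the 261 genes 211 had an unadjusted p under 0.05 for the interaction, which uses the same 12 libraries that chose them, so that nothing is read from this share.

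**Figure D4:**
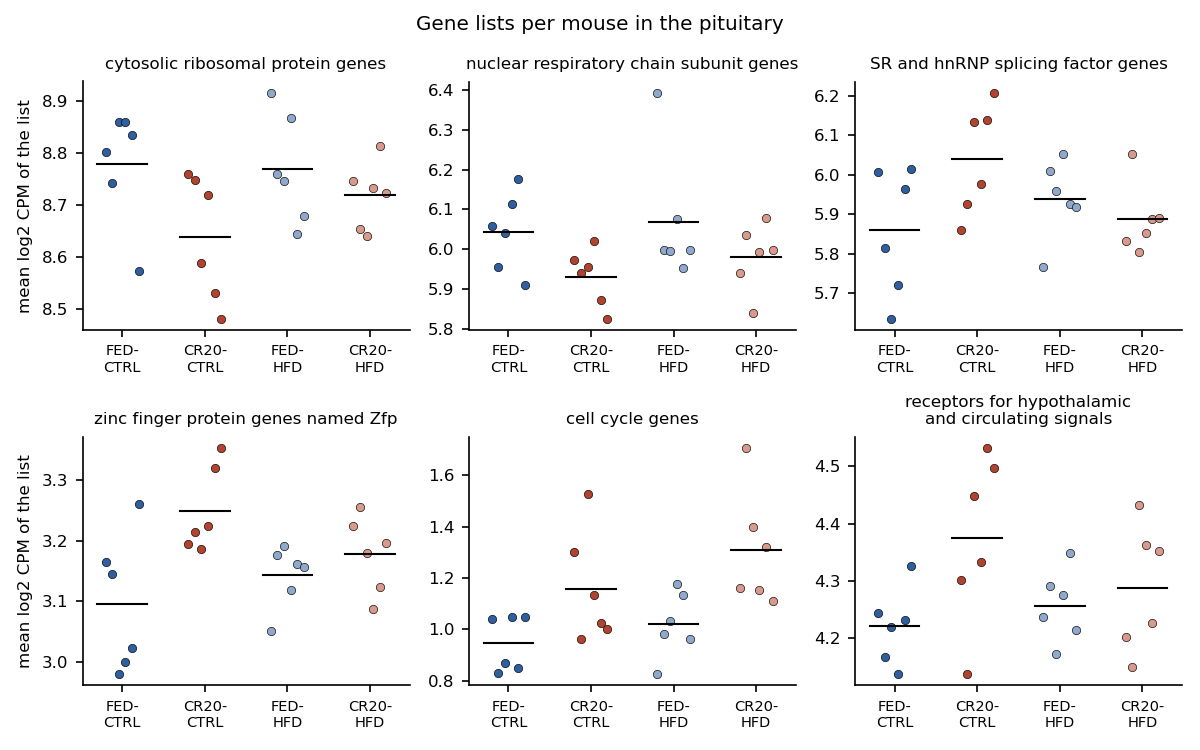
Mean log2 CPM over the tested genes of 6 lists in each mouse of the 4 pituitary groups, with the group mean as a line and an axis of its own for each list. On the control diet the ribosomal protein genes lie lower and the Zfp genes higher in CR20-CTRL, with FED-CTRL mouse 42 at the lower and upper end of its group, and the groups on the high fat diet lie closer together for these lists.

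The mice were also compared within ranges of animal number. What the numbers stand for is not stated. Among the mice numbered under 20 (3 FED-CTRL and 2 CR20-CTRL), 260 of the 261 genes had a difference of mean log2 CPM of the same sign as over all mice, with medians of 0.29 for the higher and -0.26 for the lower ones. Among those numbered 40 and above (2 FED-CTRL and 3 CR20-CTRL) 261 did, with medians of 0.45 and -0.32. These mice are also those over which the genes were chosen. Over lists, the median of the same difference was less alike in the ranges. It was -0.04 under 20 and -0.125 at 40 and above for the ribosomal protein genes, and -0.10 and -0.15 for the respiratory chain genes. In edgeR fits of each range alone, Btg1 had a log2FC of 0.20 in the first range and 0.55 in the second, Akr1c14 of 0.84 and 1.41, Pdk4 of 1.497 and 0.71, and Ntrk3 of -0.74 and -0.63.

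In the other tissues of the same 12 mice, the comparison gave 1180 genes at an unadjusted p under 0.05 in the eWAT (epididymal white adipose tissue, 7.39%) and 299 in the liver (2.17%), and 0 at an adjusted p of 0.05 in each. Of the 261 genes, 244 were tested in the eWAT, where 4 had an unadjusted p under 0.05 with the same sign and 11 with the opposite sign. In the liver 230 were tested, and 3 had such a p with the same sign and 0 with the opposite sign. Btg1 had a log2FC of 0.21 in the eWAT and 0.13 in the liver, and Pdk4 of 0.04 and 0.32, all with an unadjusted p over 0.05. Bcat1 (1.51), Tesc (2.14) and Ntrk3 (0.81) were higher in the eWAT of CR20-CTRL mice at an unadjusted p under 0.05 by edgeR, while they were lower in the pituitary.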

How the data were processed

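Pituitary, eWAT and liver RNA of the same mice was made into stranded libraries, with a total RNA kit per the labels and both a total RNA and an mRNA kit named in the methods. The authors trimmed the reads with Trimmomatic, aligned them with STAR to GRCm39 and deposited whole-number counts per Ensembl gene from featureCounts, without normalization. The strand setting of the counting is not given in the sources used here. Symbols, positions, exon length and GC content came from GENCODE M39 on GRCm39, which matched 54749 of 55416 identifiers.

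The counts of all 4 pituitary groups (6 mice each) entered a single model of 24 libraries in edgeR 4.0.16 under R 4.3.3 (filterByExpr, TMM, estimateDisp, glmQLFit, glmQLFTest, two-sided, Benjamini-Hochberg over all genes tested). eWAT and liver were fitted in the same way on their own 24 libraries. Log2 CPM used TMM factors and a prior count of 2, and CPM values used TMM factors. An SE is the absolute log2FC divided by the square root of F. Precision is limited by 6 mice a group and, for rare transcripts, by depth. No 2 pituitary libraries held identical counts. The procedure was tested on simulated data.

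Genes were named by rule: the 12 higher and 12 lower of smallest p, the 5 higher and 5 lower of largest log2FC with p under 0.01 and mean log2 CPM over 1 (without predicted genes), the hormone genes, and up to 3 members a direction of each list. Some genes that the rule names are not reported here. The members, rule and lists were chosen with earlier results of these data known. The GC and length offset came from natural splines with 5 degrees of freedom each, fitted to the log2 CPM deviations of each library. Alternatives were limma 3.58.1 voom with and without quality weights, DESeq2 1.42.0, other size factors, filters, samples, an animal-number covariate, robust fitting and each mouse left out.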

Additional observations from a re-analysis of the deposited data

Results flagged for a closer look

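For each of the 112 genes followed, the highest or lowest mouse of FED-CTRL and of CR20-CTRL was compared with its nearest neighbour by the Dixon ratio (gap over range). Of 224 such groups 9 stood out, where chance gives about 1 in 20. All values are in log2 CPM.

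In FED-CTRL, mouse 24 was high for Bcat1 (7.41, the next mouse 7.27), mouse 42 low for Rpl27 (7.76, next 8.09), mouse 16 low for Ogn (1.03, next 1.70) and mouse 41 low for Bpifa1 (-3.45, next 0.48). In CR20-CTRL, mouse 47 was low for Ntrk3 (3.04, next 3.55) and for Plk1 (-1.23, next 0.13) and high for Pam (9.76, next 9.58). CR20-CTRL mouse 49 was low for Atp5mj (5.06, next 5.23) and mouse 5 low for Sox2 (3.92, next 4.52).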

How the results depend on the processing

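On the control diet, the count at an adjusted p of 0.05 (0 genes by edgeR) was 284 with voom and quality weights, 350 with DESeq2 and 50 without a filter, and 0 to 540 with a mouse left out. At an adjusted p of 0.10 (261 genes) it was 1036 with voom and quality weights, 979 with DESeq2, 427 with the animal-number covariate, 1 in a fit of the 12 libraries alone, and 0 to 1520 with a mouse left out. For the interaction, DESeq2 gave 2 genes at an adjusted p of 0.05 in place of 0, and no value comes from the 12 libraries alone. At an unadjusted p of 0.05 the other tests, scalings, filters and left-out mice gave 2037 to 4260 genes. The 4260 are 13.4% of the 31862 genes tested without a filter. As shares of the genes tested, the range was 12.1% (without CR20-CTRL mouse 49) to 22.1% (without FED-CTRL mouse 42), beside 17.3% in the fit of all mice. DESeq2 size factors moved the share of higher genes among these from 61.4% to 55.4%, and without a filter it was 54.6%.

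Chosen after the data were seen, the offset for GC content and length gave 13 genes at an adjusted p of 0.10, with a share of higher genes of 47.9% at an unadjusted p of 0.05. Without FED-CTRL mice 16 and 42 there were 69 at 0.10. The mice numbered under 20 alone gave 9 genes at 0.05, 9 at 0.10 and 1197 at an unadjusted p of 0.05, and those numbered 40 and above 95 at 0.05. Among the mice under 20 the log2FC changed sign for Srsf10 (-0.0559), Neurod4 (-0.00202), Cry1 (-0.14), Bpifa1 (-0.15), Suz12 (-0.0254), Maff (0.19), Per1 (0.15), Ncor1 (-0.00559), Nr4a3 (0.11), Tshb (0.19) and Prl (-0.12). Among those 40 and above it did for Gata2 (0.00668), Gh (-0.00253) and Cga (-0.32). It did for Prl without FED-CTRL mice 16 and 42 (-0.0125), and for Cga without CR20-CTRL mouse 5 (-0.0144, with 0.162 at the other end of the mice left out). The cause was not tested.

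The 32 lower ribosomal protein genes were 16 to 53 with a mouse left out and 23 to 52 under the other tests, scalings and filters, and the 28 lower respiratory chain genes 17 to 37 and 25 to 33. The 11 higher splicing factors were 7 to 15 and 9 to 14, and the 72 higher Zfp genes 45 to 102 and 61 to 80. With a mouse left out, the glucocorticoid response genes had 1 to 4 higher, the leptin and growth hormone signalling genes 2 to 5, the insulin, IGF and mTOR genes 5 to 9 and the secretory granule genes 2 to 7, and the proteasome genes 5 to 12 lower. No paired analysis was possible because the 2 groups share no animal number and the labels give no litter or dam. Plk1, Krt5, Alb and Lhb lie near the limit that depth sets. Kcnj5 and Ccnb2 had a value in 24 of the alternatives, where Plk1 and Alb had one in 25 and Krt5 and Lhb in 21.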

Other observations

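With the offset for GC content and length, genes not described above were among those of smallest p. Samd11, a transcriptional regulator (log2FC 0.74), Gls2, a glutaminase (0.72), and Sh3rf1, a ubiquitin ligase (0.46), were higher in CR20-CTRL. Hepacam2, an adhesion protein (-0.38), Pigx, of GPI anchor synthesis (-0.45), Mrps17, of the mitochondrial ribosome (-0.30), and Dph6, of diphthamide synthesis (-0.47), were lower. Their adjusted p was 0.0712 to 0.0962 (edgeR), and they were named after their values were seen.

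The mitochondrially encoded genes had 4 of 10 lower with the offset (median -0.36), in place of 0 (median -0.12). The imprinted genes had 7 of 29 lower and 2 higher with it, in place of 4 and 4. Of 12 endothelial markers 5 were higher with it, in place of 2.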
